A study of Mus musculus with 12 samples.

Results

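The 8 genes described here encode cytokines, receptors, a nuclear receptor and a chemokine of T helper 17 (Th17) cells: Il17a, Il17f, Il22, Rora, Il23r, Ccr6, Il1r1 and Ccl20. They were selected on their FPKM levels across the 4 groups, with earlier results of the same table known, and taken by gene symbol from the 45777 genes of the deposited table. Having been chosen by these values, they carry no test of their own: their levels and fold changes are a description. RNA-seq gave 12 libraries from splenic CD4+ T cells of mice, stimulated with 0.5 ug/ml anti-CD3 for 3 days. The 4 groups were anti-CD3 alone (aCD3), anti-CD3 with Lactobacillus acidophilus (LA), anti-CD3 with FK506 (FK) and anti-CD3 with L. acidophilus and FK506 together (combination), with 3 libraries each. FK506, or tacrolimus, is a calcineurin inhibitor given against rejection and graft-versus-host disease. The sample labels describe wild type Balb/c mice aged 7 weeks in every group, whereas the study's methods name B6 mice for the RNA-seq, and the labels state no dose of L. acidophilus or FK506. Nothing in the sources says that the 3 libraries of a group came from separate animals or cultures, so every error and p-value below measures the spread between these libraries, which may be technical.

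Th17 cells are the CD4+ helper T cells that secrete IL-17A, IL-17F and IL-22, cytokines that recruit neutrophils and act on epithelium, and they are studied in graft-versus-host disease for their part in tissue injury. Naive cells enter the program under TGF-beta with IL-6, and IL-1 and IL-23 sustain it through receptors that the cells then carry. Nuclear receptors of the ROR family bind the DNA motif AGGTCA and drive the program, while CCR6 draws the cells towards its ligand CCL20.

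The promoters of the 8 genes were read from RefSeq (GRCm38.p6, the build of the deposited table) as windows of 300 bases, from 250 before to 50 after the transcript start. All 8 genes were matched, to 10 windows. The motif AGGTCA (or TGACCT, on the other strand) was in the windows of Il17a, Il17f, Il23r and Ccl20 and in the first of the 2 windows of Ccr6, and was absent from those of Il22, Rora and Il1r1. It was in 16.3% of the 32851 mouse promoter windows searched. The motif GGAAA (or TTTCC), the core of NFAT sites, whose factors calcineurin activates, was in a window of every gene but Il17a, and in 61.3% of all windows. A match describes only these letters in this window. The 4 windows below were chosen because they belong to the IL-17 cytokine pair, to the IL-23 receptor and to the gene with the widest difference between groups. Capitals mark AGGTCA and GGAAA on either strand, and the windows are chr1:20730655-20730954 on the plus strand (Il17a), chr1:20784221-20784520 on the minus strand (Il17f), chr6:67491806-67492105 on the minus strand (Il23r) and chr17:8235793-8236092 on the plus strand (Ccr6), each written 5′ to 3′.
Il17a: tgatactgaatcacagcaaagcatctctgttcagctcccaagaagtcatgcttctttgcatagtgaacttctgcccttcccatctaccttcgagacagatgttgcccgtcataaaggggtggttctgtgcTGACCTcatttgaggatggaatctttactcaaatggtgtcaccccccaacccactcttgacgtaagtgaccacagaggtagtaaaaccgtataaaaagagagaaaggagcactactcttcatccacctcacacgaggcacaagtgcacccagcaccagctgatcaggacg
Il17f: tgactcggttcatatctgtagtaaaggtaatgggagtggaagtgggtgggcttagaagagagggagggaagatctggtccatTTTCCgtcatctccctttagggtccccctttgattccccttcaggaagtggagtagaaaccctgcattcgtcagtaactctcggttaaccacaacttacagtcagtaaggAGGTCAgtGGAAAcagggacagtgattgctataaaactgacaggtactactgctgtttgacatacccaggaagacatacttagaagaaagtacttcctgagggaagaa
Il23r: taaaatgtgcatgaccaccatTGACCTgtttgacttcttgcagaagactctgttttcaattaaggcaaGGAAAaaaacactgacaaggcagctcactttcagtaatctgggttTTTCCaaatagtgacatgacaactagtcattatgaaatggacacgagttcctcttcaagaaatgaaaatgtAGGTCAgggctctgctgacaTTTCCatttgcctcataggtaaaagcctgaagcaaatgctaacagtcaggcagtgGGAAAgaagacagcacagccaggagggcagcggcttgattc
Ccr6: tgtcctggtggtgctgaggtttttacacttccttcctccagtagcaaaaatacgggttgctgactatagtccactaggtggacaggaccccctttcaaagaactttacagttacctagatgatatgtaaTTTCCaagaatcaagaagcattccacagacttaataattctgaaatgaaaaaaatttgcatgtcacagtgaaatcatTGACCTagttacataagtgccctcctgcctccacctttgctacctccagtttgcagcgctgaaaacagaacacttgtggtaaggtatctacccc

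The Il23r window held AGGTCA 2 times and GGAAA 4 times, the Il17f window 1 and 2 times, and the Ccr6 window 1 and 1 times. The Il17a window held AGGTCA 1 time and also 1 match to TGANTCA, the AP-1 motif, which 7.81% of all windows held. The Ccr6 window held 2 matches to TTCNNNGAA, the motif of STAT factors, which 8.3% of all windows held.

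Levels are given as FPKM, fragments per kilobase of transcript scaled to the library, so that genes of different length can be set side by side, and the values of a group are listed in the order of replicates 1, 2 and 3. In the aCD3 libraries only Il22 was above 1 FPKM, at 12.5 ± 5.88 (SD, n = 3). The other genes followed from Rora at 0.541 ± 0.143 down to Il23r at 0.14 ± 0.0473 FPKM, and each neighbour in that order overlapped the next. In the combination libraries the order was Il22 at 15.7 ± 21.2, Ccr6 at 13.3 ± 1.41, Rora at 9.51 ± 1.65, Il17f at 7.42 ± 4.16, Il23r at 4.17 ± 0.532, Il17a at 3.72 ± 2.5, Il1r1 at 2.78 ± 0.164 and Ccl20 at 1.78 ± 1.14 FPKM (SD, n = 3). Neighbours in this order overlapped in their ranges except Ccr6 and Rora.

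**Figure D1:**
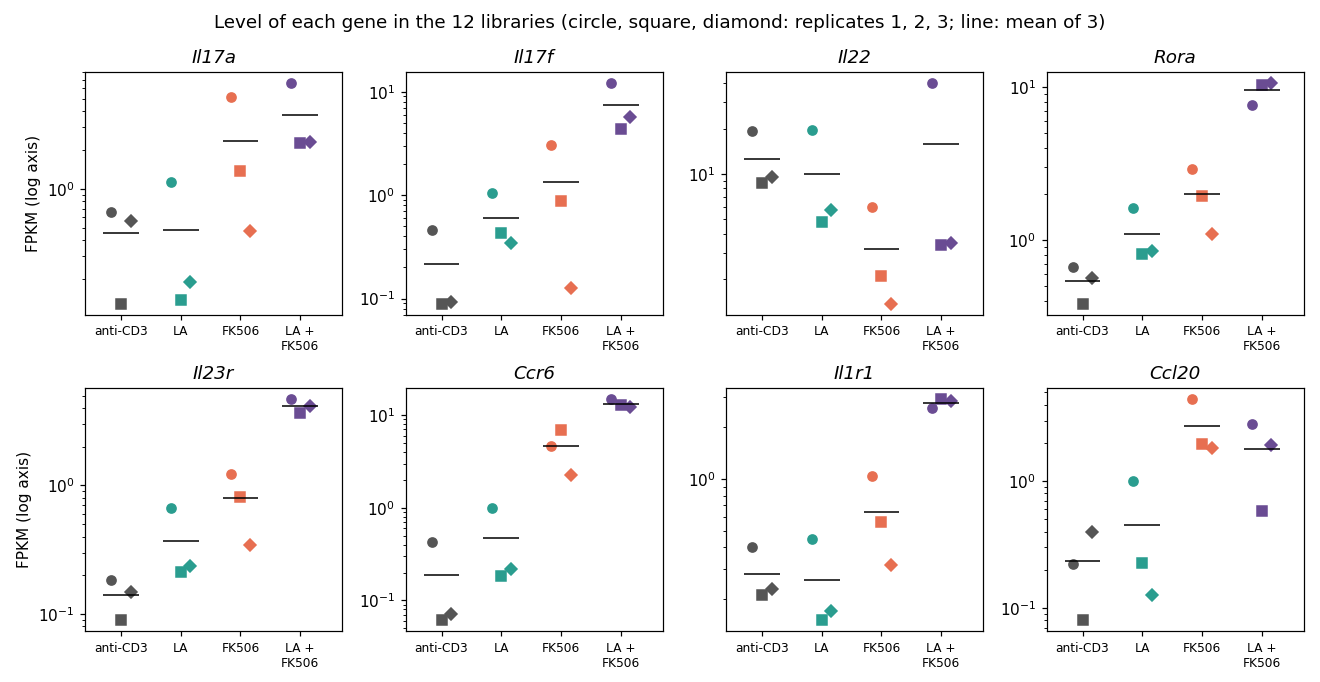
FPKM of the 8 genes (vertical log axis) in the 12 libraries, by group on the horizontal axis; circles, squares and diamonds are replicates 1, 2 and 3 and the line is the mean of 3. The combination libraries of Rora, Il23r, Ccr6, Il1r1 and Il17f lie above every library of the other groups, while those of Il22 split into 40.2 FPKM in replicate 1 and 3.36 and 3.48 FPKM in the others.

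The replicate 1 library was the highest of its group in 28 of the 32 pairs of gene and group, against 38.7% of such pairs over all genes with a value above 0 in the 3 libraries. The 4 replicate 1 libraries were also the deepest, with 63113961 to 64658165 counts against 45416397 to 54245588 in the other 8. FPKM already divides by depth, and the part of depth or of the replicate in these levels was not tested. For the combination against aCD3, the fold change from replicates 2 and 3 alone is given beside that of all libraries. In the combination, replicates 2 and 3 were the most alike of all pairs of libraries within a group. Fold changes are on the log2 scale, from edgeR's quasi-likelihood model of the counts of all 12 libraries, with the standard error (SE).

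Il17a (chr1:20730905-20734496) encodes IL-17A, the defining cytokine of the lineage. Its FPKM values were 0.664, 0.129 and 0.562 in the aCD3 libraries and 1.12, 0.138 and 0.19 in the LA libraries. They were 5.15, 1.37 and 0.469 with FK506 and 6.6, 2.28 and 2.29 with the combination. The combination libraries lay above all aCD3 and LA libraries and overlapped the FK libraries, which overlapped aCD3 through replicate 3. The log2 difference from aCD3 was 0.03 (SE 0.96) with L. acidophilus, 2.21 (SE 0.95) with FK506 and 2.82 (SE 0.96) with the combination. The combination differed from FK506 by 0.61 (SE 0.88), less than its error. Leaving out a library moved the difference between combination and aCD3 between 2.08, without combination replicate 1, and 3.24, without aCD3 replicate 1, and replicates 2 and 3 alone gave 2.49. The difference between FK506 and aCD3 was 0.88 without FK replicate 1, that between L. acidophilus and aCD3 was -1.52 without LA replicate 1, and that between combination and FK506 was -0.13 without combination replicate 1.

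Il17f (chr1:20777146-20785274) lies 42649 bases from Il17a and encodes IL-17F, which pairs with IL-17A or with itself. The aCD3 libraries held 0.462, 0.089 and 0.0927 FPKM and the LA libraries 1.04, 0.43 and 0.345. The FK libraries held 3.02, 0.869 and 0.126 FPKM and the combination libraries 12.2, 4.4 and 5.69. Every combination library was above every library of the other groups, and the FK libraries differed among themselves by 23.9-fold. The log2 difference from aCD3 was 1.69 (SE 0.98) with L. acidophilus, 2.62 (SE 0.97) with FK506 and 4.89 (SE 1.03) with the combination, and that between combination and FK506 was 2.27 (SE 0.89). The aCD3 values rest on 41, 7 and 11 counts. Without aCD3 replicate 1 the difference between combination and aCD3 was 5.87, without combination replicate 1 it was 4.21, and replicates 2 and 3 alone gave 5.18. The difference between FK506 and aCD3 was 0.87 without FK replicate 1 and 3.60 without aCD3 replicate 1. That between combination and FK506 was 1.59 without combination replicate 1 and 4.02 without FK replicate 1. The difference between L. acidophilus and aCD3 was 1.16 without LA replicate 1 and 2.66 without aCD3 replicate 1. The size of these differences thus rested on replicate 1 libraries.

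Il22 (chr10:118204584-118210047) encodes IL-22, an IL-10 family cytokine that acts on epithelial cells. Its levels were 19.3, 8.63 and 9.58 FPKM in aCD3, 19.5, 4.76 and 5.76 in LA, 6.03, 2.1 and 1.37 in FK and 40.2, 3.36 and 3.48 in the combination. Unlike the other members it was lower with FK506 than with anti-CD3 alone in every library, with ratios of 0.313, 0.243 and 0.143 between libraries of the same number and a log2 difference of -2.10 (SE 0.97), which was -2.98 without FK replicate 1 and -1.63 without aCD3 replicate 1. The combination libraries lay on both sides of the aCD3 libraries, with 3060 counts in replicate 1 against 178 and 201 in replicates 2 and 3. The difference between combination and aCD3 was therefore 0.16 (SE 0.92) over all libraries, -2.12 without combination replicate 1 and -1.65 in replicates 2 and 3 alone. That library also set the difference from LA, 0.55 (SE 0.92) with it and -1.73 without it, and from FK, 2.26 (SE 0.97) with it and -0.02 without it. Iltifb, a near-identical neighbour 79581 bases away, held 744, 47 and 40 counts in the combination libraries and 378, 101 and 157 in aCD3. Its profile over the 12 libraries was the closest to that of Il22 among 12214 genes, with a root mean square difference of 0.242 on the log2 scale, and how the authors' counting divided reads between the copies is not given in the sources used here.

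Rora (chr9:68653404-69388246) encodes RORalpha, a ROR nuclear receptor that takes part in Th17 differentiation. Its FPKM values were 0.667, 0.386 and 0.571 in aCD3 and 1.62, 0.815 and 0.847 in LA. They were 2.93, 1.94 and 1.1 in FK and 7.61, 10.3 and 10.6 in the combination. The LA and FK libraries overlapped each other, and no other pair of groups overlapped. The gene had 244 to 6342 counts in a library and the smallest SE of the 8, with log2 differences from aCD3 of 0.93 (SE 0.35), 1.74 (SE 0.35) and 3.91 (SE 0.38) with L. acidophilus, FK506 and the combination. The combination was above FK506 by 2.17 (SE 0.35). Its difference from aCD3 ranged from 3.73 to 4.12 over the libraries left out in turn and was 4.23 in replicates 2 and 3 alone. The difference with L. acidophilus was 0.53 without LA replicate 1.

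Il23r (chr6:67422932-67491855) encodes the specific chain of the IL-23 receptor, which sustains committed Th17 cells. Levels were 0.183, 0.0897 and 0.148 FPKM in aCD3, 0.664, 0.211 and 0.236 in LA, 1.22, 0.813 and 0.344 in FK and 4.7, 3.64 and 4.19 in the combination. As for Rora, the LA and FK libraries overlapped and the other pairs of groups did not. The log2 difference from aCD3 was 1.30 (SE 0.52) with L. acidophilus, 2.34 (SE 0.52) with FK506 and 4.65 (SE 0.55) with the combination, and the combination was above FK506 by 2.31 (SE 0.48). The combination libraries were within 1.29-fold of each other. Leaving out a library gave 4.44 to 4.92 for the combination against aCD3, and replicates 2 and 3 alone gave 4.79. The difference between L. acidophilus and aCD3 was 0.56 without LA replicate 1.

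Il1r1 (chr1:40222480-40316201) encodes the signalling receptor for IL-1. Levels were 0.403, 0.211 and 0.227 FPKM in aCD3 and 0.448, 0.151 and 0.17 in LA. They were 1.04, 0.563 and 0.317 in FK and 2.6, 2.91 and 2.83 in the combination. The aCD3, LA and FK libraries overlapped, and the combination libraries, within 1.12-fold of each other, lay above them all. The log2 difference from aCD3 was -0.16 (SE 0.44) with L. acidophilus, 1.06 (SE 0.44) with FK506 and 2.98 (SE 0.46) with the combination, which was above FK506 by 1.92 (SE 0.44). Replicates 2 and 3 alone gave 3.33 for the combination against aCD3. The difference with L. acidophilus was -0.79 without LA replicate 1 and turned to 0.15 without aCD3 replicate 1, and that with FK506 was 0.51 without FK replicate 1.

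Ccr6 (chr17:8236041-8258519) encodes a chemokine receptor carried by Th17 cells and by B cells. Its levels were 0.429, 0.0615 and 0.0715 FPKM in aCD3, 1.01, 0.182 and 0.218 in LA, 4.65, 6.89 and 2.26 in FK and 14.9, 12.9 and 12.1 in the combination. The aCD3 and LA libraries overlapped, the FK libraries lay above both and the combination libraries lay above FK. The log2 difference from aCD3 was 1.24 (SE 0.73) with L. acidophilus, 4.19 (SE 0.75) with FK506 and 5.81 (SE 0.79) with the combination, the widest of the 8 genes in this comparison. The combination was above FK506 by 1.61 (SE 0.64). The aCD3 counts of 89, 13 and 15 set the size of the fold, since leaving out aCD3 replicate 1 gave 7.12 and leaving out aCD3 replicate 3 gave 5.44. Replicates 2 and 3 alone gave 7.00 for the combination and 5.43 for FK506 against aCD3. The difference between LA and aCD3 was 0.02 without LA replicate 1 and 2.56 without aCD3 replicate 1.

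Ccl20 (chr1:83116766-83119167) encodes the ligand of CCR6. Levels were 0.221, 0.0805 and 0.4 FPKM in aCD3, 0.996, 0.226 and 0.126 in LA, 4.43, 1.95 and 1.83 in FK and 2.84, 0.582 and 1.92 in the combination. The FK and combination libraries lay above all aCD3 libraries and overlapped each other, so Ccl20 was the member whose combination mean was below its FK mean. The log2 difference from aCD3 was 0.88 (SE 0.81) with L. acidophilus, 3.38 (SE 0.80) with FK506 and 2.69 (SE 0.79) with the combination, and the combination minus FK506 was -0.69 (SE 0.70). It was also the gene with the fewest counts, 4 to 20 in the aCD3 libraries and 25 in combination replicate 2. Replicates 2 and 3 alone gave 2.13 for the combination against aCD3. The difference between L. acidophilus and aCD3 was -0.41 without LA replicate 1 and 1.38 without aCD3 replicate 3. Combination minus FK506 ran from -1.24 without combination replicate 1 to -0.18 without FK replicate 1.

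**Figure D2:**
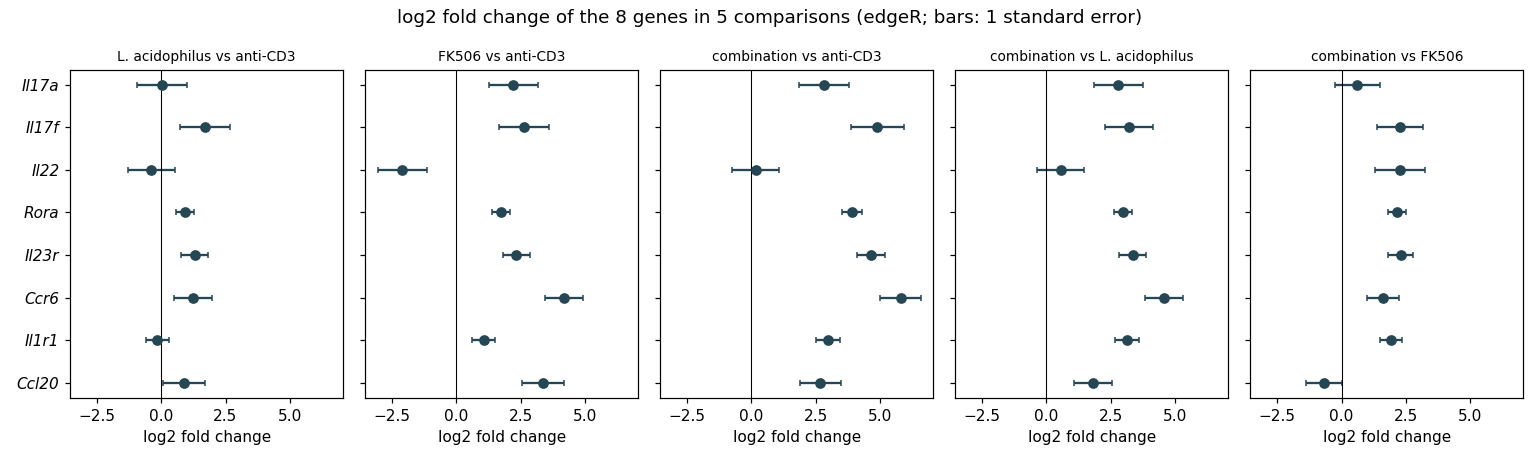
Log2 fold change (horizontal axis) of the 8 genes in 5 comparisons, 1 panel each; points are edgeR estimates from 12 libraries and bars are 1 standard error. In the combination against anti-CD3 the estimates run from 0.16 for Il22 to 5.81 for Ccr6.

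A gene was called where its Benjamini-Hochberg adjusted p in edgeR was under 0.05 over the 23585 genes tested and the difference was at least 2-fold. All 8 members passed the filter on low counts, a count above 0 in at least 3 libraries. The 5 comparisons share libraries, and the members were chosen with these contrasts known, so the counts that follow are read as a description. Counts under another setting or with a library left out come without the share of all genes called there. With L. acidophilus alone 0 of 8 members were called, where 0.157% of all genes were called higher and 0.0297% lower. In this comparison 2 members had an unadjusted p under 0.05 in edgeR, where 3489 of the 23585 genes tested did, and DESeq2 called 0. The libraries of 2 members, Rora and Il23r, did not overlap and were higher, where 9.57% of all genes were higher and 8.64% lower without overlap. Libraries of the same number deviated together in this pair of groups, and within these numbers 4 of 8 members were higher with L. acidophilus in all 3 pairs, where 22.5% of all genes were higher and 13.7% lower in all 3. The FPKM ratios of LA to aCD3 were 2.43, 2.11 and 1.48 for Rora and 3.62, 2.35 and 1.59 for Il23r. They were 2.35, 2.95 and 3.05 for Ccr6 and 2.26, 4.83 and 3.72 for Il17f, whose ranges over the groups overlapped. With FK506, 4 of 8 were called higher, Rora, Il23r, Ccr6 and Ccl20, where 6.44% of all genes were. The call of Ccl20 was lost without aCD3 replicate 2 and those of Rora and Il23r with limma on log2(FPKM + 1), while DESeq2 called 6, Il17a and Il17f added, and leaving out FK replicate 3 also gave 6, Il17f and Il1r1 added. The combination against aCD3 gave 7 of 8 called higher, all but Il22, where 13.8% of all genes were. Il22 was called lower without combination replicate 1 and in replicates 2 and 3 alone. The 7 genes called higher over all libraries were also higher without overlap, where 26.2% of all genes were higher and 24.7% lower without it. The calls of Il17a and Ccl20 were lost without aCD3 replicate 2 or combination replicate 1, that of Il17a also without aCD3 replicate 3, and that of Ccl20 with limma on log2(FPKM + 1).

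Against LA, the combination had 6 of 8 members called higher, all but Il22 and Ccl20, where 9.93% of all genes were. The replicate number as a block added Ccl20 and made it 7. Same-numbered libraries deviated together in this pair of groups, which does not settle that the number pairs them. Without LA replicate 2, LA replicate 3 or combination replicate 1 the count was 4, with Il17a and Il17f lost. The call of Il17a was also lost without aCD3 replicate 3, FK replicate 2, or combination replicate 2 or 3, so that it held in 5 of the 12 fits with a library left out. Against FK506, it had 3 of 8 called higher, Rora, Il23r and Il1r1, where 3.84% of all genes were called higher and 3.60% lower, and 5 of 8 higher without overlap, where 20.0% of all genes were higher and 20.8% lower without it. The median log2 difference over the 8 members was 0.90 with L. acidophilus, 2.28 with FK506 and 3.45 with the combination, each against aCD3, and the median over all genes tested was -0.005, -0.002 and 0.023.

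Whether L. acidophilus acted differently with FK506 than without it was put as an interaction, the difference between combination and FK minus the difference between LA and aCD3, called at an adjusted p under 0.05. Of the 8 members 0 were called in edgeR, and DESeq2 called 1, Il1r1. Calls under settings other than the edgeR fit come without the share of all genes called there. Il1r1 was also called with limma at either pseudocount, with the replicate block, in replicates 2 and 3 alone with or without the block, and without LA replicate 1 or FK replicate 1. Rora was called with limma on log2(FPKM + 1) and in replicates 2 and 3 alone without the block, Il23r with that limma fit, and Il22 in replicates 2 and 3 alone without the block. Over all genes edgeR called 4.35%, 1.35% with a positive and 3.00% with a negative estimate. The estimates were 0.59 (SE 1.30) for Il17a, 0.58 (SE 1.31) for Il17f, 2.65 (SE 1.33) for Il22, 1.24 (SE 0.48) for Rora, 1.01 (SE 0.70) for Il23r, 0.37 (SE 0.97) for Ccr6, 2.08 (SE 0.62) for Il1r1 and -1.57 (SE 1.07) for Ccl20. The estimate for Il22 was 0.37 without combination replicate 1. Those of Ccr6 and Il17f turned to -0.95 and -0.40 without aCD3 replicate 1, and that of Il17a to -0.15 without combination replicate 1. Without LA replicate 1 the estimates were 1.75 for Il23r, 1.64 for Rora, 1.59 for Ccr6, 2.14 for Il17a, 3.59 for Il22, 2.71 for Il1r1 and -0.28 for Ccl20, and without FK replicate 1 that of Il17f was 2.33.

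The members did not follow each other equally. Over the 12 libraries the closest pair was Rora and Il23r, with a root mean square difference of 0.203 in centred log2 level, and the farthest was Il22 and Ccr6, with 2.738. Il17a and Il17f, neighbours on the chromosome, differed by 0.737. Among 12214 other genes with a mean of at least 1 FPKM, the closest to Il23r was Flt3 at 0.159, and Tnfaip2 was also near it at 0.188. The closest to Rora was Rasgef1b at 0.236, with Flt3 at 0.256 after it. For Il1r1 it was Tox2 at 0.202, for Ccr6 Sntb1 at 0.383 and Kit at 0.445, for Il17a Ifngr1 at 0.42 and for Il17f Smpdl3a at 0.491. The 3 closest genes to Ccl20 were immunoglobulin segments, Ighv1-22 at 0.236, Igkv4-55 at 0.358 and Igkv8-16 at 0.359.

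The libraries were checked against markers of the labelled cells and of others, summed as CPM, counts scaled to the library. The 8 markers of CD4+ T cells summed to 3072 to 4242 CPM in aCD3, 3331 to 3648 in LA, 2926 to 3172 in FK and 3898 to 4332 in the combination, so these markers were present in every library. CD8+ T-cell markers summed to at most 18.74 CPM in any library. B-cell markers summed to 216.6 to 379.2 CPM in aCD3, 167.8 to 324.6 in LA, 1560 to 3075 in FK and 1275 to 1466 in the combination. Of these 10 markers, 9 rose with FK506 and 7 with the combination against aCD3, and 6 were lower in the combination than in FK. Myeloid markers summed to 6.779 to 11.78 CPM in aCD3, 8.212 to 16.74 in LA, 14.98 to 42.02 in FK and 86.74 to 144.7 in the combination, with 8 of 10 called higher and 1 lower against aCD3 with FK506 and with the combination. Flt3, the gene closest to Il23r, is in this list.

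Gamma-delta T cells and innate lymphoid cells also make IL-17 and IL-22. Gamma-delta markers summed to 3.327 to 4.378 CPM in aCD3, 3.973 to 7.404 in LA, 12.7 to 15.1 in FK and 9.93 to 17.46 in the combination. Of the 7 tested, 5 rose with FK506 and 5 with the combination against aCD3, and the FK and combination sums overlapped. The constant segments Tcrg-C1 and Tcrg-C2 and the transcription factor gene Sox13 were called higher in both comparisons. 5830411N06Rik had 0 counts in the 3 aCD3 libraries, 88, 21 and 18 in FK and 317, 42 and 68 in the combination. Its bound, at least 45.6-fold above aCD3, used CPM without TMM factors and is smaller with them. Cd163l1 had 0 counts in aCD3 and 39, 8 and 17 in the combination, at least 7.10-fold higher without TMM factors, a bound that is also smaller with them. Tcrg-V6, a variable segment used by some IL-17-producing gamma-delta cells, was at 3 counts or fewer in every library. Innate lymphoid and NK markers summed to 261.6 to 359.6 CPM in aCD3, 220.6 to 360.3 in LA, 394 to 518.7 in FK and 375.3 to 430.2 in the combination, with 3 and 4 of 6 called higher against aCD3 and Klre1 and Klra8 at 3 counts or fewer. Most of these sums was Id2, at 173 to 278 CPM in aCD3, 256 to 380 in FK and 176 to 181 in the combination, and Il7r. Il7r was at 56.4 to 83.5, 103 to 125 and 141 to 185 CPM in these groups, so the sums mainly follow these genes. Kit, a marker in this list and among the closest genes to Ccr6, had 38, 10 and 19 counts in aCD3 and 3367, 1917 and 2083 in the combination. The study's methods describe the isolation of splenic CD4+ T cells on magnetic beads directed at CD4 for its cultures. The part of these cells in the levels of the 8 genes was not tested. In RNA from whole cultures, the number of cells of a type and the RNA per cell cannot be told apart.

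**Figure D3:**
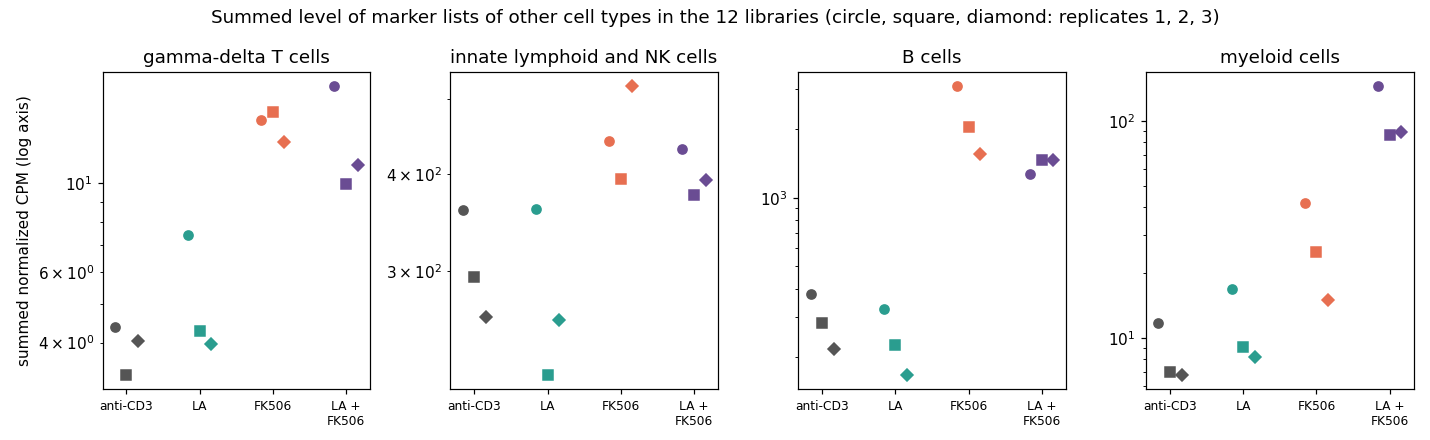
Summed normalised CPM (vertical log axis) of 4 marker lists in the 12 libraries by group; circles, squares and diamonds are replicates 1, 2 and 3. The B-cell and gamma-delta sums are higher in FK506 and combination libraries than in the others, and the myeloid sums are highest in the combination, at 86.74 to 144.7 CPM.

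Other genes of the Th17 pathway were followed in 9 lists of 89 genes, 83 of them tested. In the combination against aCD3, 34 rose and 21 fell, where 24.6% of all genes were called, and their median log2 difference was 0.84 against 0.02 over all genes. With FK506 20 rose and 12 fell, where 10.6% of all genes were called. With L. acidophilus alone edgeR called 0, with 21 at an unadjusted p under 0.05, where 3489 of all 23585 genes tested were, and DESeq2 called 3. Against FK506, 18 genes rose and 9 fell with the combination, where 7.44% of all genes were called, and without FK replicate 3 the total of 27 became 16. Against LA, 24 rose and 20 fell, where 16.6% were called.

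Of the other products of Th17 and related helper cells, 7 of the 8 tested fell in the combination against aCD3, all but Il17c, with a median of -5.60 (-4.72 with genes listed at 0 at their bound) on the log2 scale. Il3, a haematopoietic growth factor, had 963, 774 and 467 counts in aCD3, 82, 39 and 93 in FK and 24, 15 and 9 in the combination, a log2 difference of -5.63 (SE 0.44, edgeR adjusted p = 8e-06). Il24, an IL-10 family cytokine like IL-22, was listed at 9117 to 19334 counts in aCD3 and at 0 in all 3 combination libraries, at least 4.03e+03-fold lower against a floor of 3 counts per library if the listed 0 is a measured 0, which the sources used here do not settle. The same limit holds for Il9 and for the median above. Il9 was listed at 1054 to 1620 counts in aCD3 and at 0 in the combination, at least 398-fold lower, while FK506 alone gave 910 to 2370 counts and a log2 difference of 0.17 (SE 0.47, edgeR adjusted p = 0.859). Il21, a cytokine of Th17 and follicular helper cells, differed by -5.56 (SE 0.48, edgeR adjusted p = 9.97e-06).

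Of the receptors and adaptors for IL-17 and IL-22, 4 of 8 tested rose, with a median of 1.14. Il17re, a receptor chain for IL-17C, had 13, 9 and 9 counts in aCD3, 153, 53 and 31 in FK and 428, 213 and 220 in the combination, a log2 difference of 4.65 (SE 0.89, edgeR adjusted p = 0.00133). Il17rd rose by 2.32 (SE 0.41, edgeR adjusted p = 0.00074). Il17rc and Il17rb, with edgeR adjusted p of 0.0437 and 0.045, were called over all libraries. The call of Il17rc was lost without aCD3 replicate 2 or 3 or any combination replicate, up to an edgeR adjusted p of 0.131 without combination replicate 1. That of Il17rb was lost without aCD3 replicate 2 or 3, LA replicate 3, FK replicate 1 or 2, or combination replicate 2 or 3, up to an edgeR adjusted p of 0.126 without aCD3 replicate 2.

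Among the cytokines that induce the program, 5 of 9 rose and 2 fell. Il12b, the subunit shared by IL-12 and IL-23, was at 0 counts in the 3 aCD3 libraries, at 20, 24 and 18 in LA, at 13, 7 and 0 in FK and at 454, 676 and 709 in the combination. Its bound, at least 228-fold above aCD3, used CPM without TMM factors and is smaller with them. Il1a, a ligand of the IL-1 receptor, differed by 5.82 (SE 0.73, edgeR adjusted p = 8.19e-05), and Il18 by 1.76 (SE 0.33, edgeR adjusted p = 0.00123). Tgfb3 fell by 2.64 (SE 0.48, edgeR adjusted p = 0.000886). Il12b, Il1a and Il18 are best known as products of myeloid cells, whose markers were higher in the same libraries, and that part was not tested.

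The receptors for those cytokines gave 5 of 11 higher and 2 lower. Il18rap and Il18r1, the chains of the IL-18 receptor, differed by 4.04 (SE 0.31, edgeR adjusted p = 7.37e-06) and 4.08 (SE 0.53, edgeR adjusted p = 0.000102). Tgfbr2 rose by 1.61 (SE 0.13, edgeR adjusted p = 9.42e-06), and Il21r fell by 1.14 (SE 0.10, edgeR adjusted p = 1.04e-05). Of the ROR and REV-ERB nuclear receptors other than Rora, 3 of 4 rose. Nr1d1 and Nr1d2 encode REV-ERB repressors, which bind the same DNA motif as ROR factors. Nr1d1 had 86, 55 and 70 counts in aCD3 and 589, 395 and 365 in the combination, a difference of 2.57 (SE 0.20, edgeR adjusted p = 7.89e-06). Nr1d2 differed by 2.52 (SE 0.20, edgeR adjusted p = 8.78e-06).

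The transcription factors gave 2 of 15 higher and 4 lower, with a median of -0.24. Nfkbiz, an IL-17 program co-activator, differed by 1.98 (SE 0.23, edgeR adjusted p = 5.05e-05) and Nfatc1, an NFAT factor downstream of calcineurin, by 1.17 (SE 0.13, edgeR adjusted p = 4.3e-05). Fosl2 and Irf4 fell by 1.39 (SE 0.18, edgeR adjusted p = 9.66e-05) and 1.33 (SE 0.21, edgeR adjusted p = 0.000366). Stat3, which carries the IL-6 and IL-23 signals, differed by -0.24 (SE 0.12, edgeR adjusted p = 0.137). Of the genes that restrain the program, 2 of 11 rose and 5 fell. Foxp3, the regulatory T-cell factor, differed by 4.11 (SE 0.44, edgeR adjusted p = 3.23e-05) and Id3 by 2.56 (SE 0.30, edgeR adjusted p = 5.13e-05). Gfi1 and Gata3, factors of Th2 cells, fell by 2.28 (SE 0.16, edgeR adjusted p = 5.9e-06) and 1.63 (SE 0.13, edgeR adjusted p = 8.18e-06).

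The homing and surface genes gave 9 of 11 higher and 1 lower. Cxcr3 and Itga4, a chemokine receptor and an integrin chain, differed by 2.17 (SE 0.15, edgeR adjusted p = 5.9e-06) and 2.66 (SE 0.32, edgeR adjusted p = 5.83e-05). Klrb1f, a C-type lectin receptor, differed by 2.52 (SE 0.35, edgeR adjusted p = 0.000144), and Ccr4, the chemokine receptor shared with Th2 cells, fell by 1.33 (SE 0.18, edgeR adjusted p = 0.000118). Of the genes that IL-17 induces in tissue cells, 4 of 6 tested rose, where 13.8% of all genes were called higher. Myeloid markers were higher in the same combination libraries. The part of those cells, or of any response to IL-17, in these genes was not tested. Cxcl1, a neutrophil chemokine, had 3, 4 and 4 counts in aCD3 and 137, 34 and 53 in the combination, a difference of 4.11 (SE 0.53, edgeR adjusted p = 9.76e-05). Cxcl3 was at 0 in aCD3 and at 192, 88 and 80 counts in the combination, and Cxcl2 went from 2, 0 and 0 to 232, 54 and 70. The bound for Cxcl3, at least 41.1-fold higher, used CPM without TMM factors and is smaller with them. Lcn2 had 238, 10 and 15 counts in the combination and 4, 0 and 2 in aCD3, and its edgeR adjusted p went from 0.0416 to 0.27 without combination replicate 1. Its call was also lost without any 1 of the aCD3 or FK libraries.

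**Figure D4:**
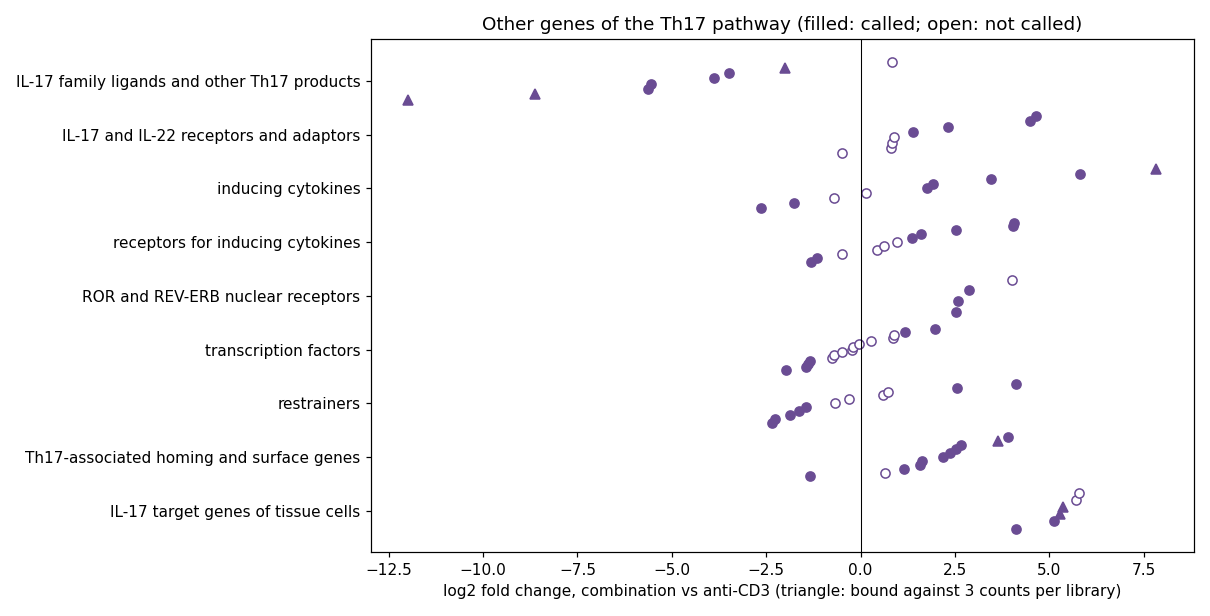
Log2 fold change (horizontal axis) of the 83 tested genes of the 9 pathway lists, combination against anti-CD3. Filled points passed the edgeR test and the 2-fold threshold, and open points did not. Triangles are bounds against 3 counts per library, from CPM without TMM factors. All called points of the ligand list lie below 0 and 9 of the 10 called points of the homing list lie above it.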

How the data were processed

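Per the sample labels, poly(A) RNA of the 12 libraries was sequenced, and the submitters' processing notes name bcl2fastq 2.20.0, Trimmomatic, HISAT2 2.1.0 and StringTie 2.1.3b with mm10/GRCm38. The authors deposited read counts, FPKM and TPM for 45777 genes, and the 12 TPM columns were not used. The study's methods also name quantile normalization, which was not visible in the deposited FPKM. Counts, 45416397 to 64658165 per library, were taken as given although StringTie derives them from coverage estimates, and whether a listed 0 is a measured 0 or an estimate that was not made is not given in the sources used here.

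Members, gene lists and tests were chosen with earlier results of these data known. Genes needed a nonzero count in 3 or more libraries, which 23585 met, and were fitted with edgeR 4.0.16 (R 4.3.3, TMM factors, quasi-likelihood test, 4 group means, Benjamini-Hochberg over all genes). Of each list, up to 4 of the genes called in the combination against aCD3 were named, those with the smallest p. Stat3 was added after its values were seen. Some genes of the lists and among the closest profiles are not reported here. On data simulated for the combination against aCD3 (23273 genes), 50 of 100 genes changed 2-fold and 87 of 100 changed 4-fold were recovered. Another 11 genes passed. This used an edgeR adjusted p under 0.05 with no fold threshold, unlike the calls above. The changed genes were drawn from those with a mean of at least 50 counts, and no replicate effect was simulated. Likeness of profiles was the root mean square difference of centred log2 CPM (0.5 CPM added). Folds against a group at 0 counts used a floor of 3 counts per library, which covers counting error only. They used CPM without TMM factors, and bounds on a rise in the combination against aCD3 are smaller with these factors.

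Same-numbered libraries deviated together in LA against aCD3 (r = 0.527, 0.361 and 0.297 over 12268 genes) and in the combination against LA (0.229, 0.234 and 0.156), so the number may pair these groups. In FK against aCD3, the combination against aCD3 (0.079, -0.148 and 0.372) and the combination against FK (0.321, 0.05 and 0.217) at least 1 pair was under 0.1. If LA were paired with both aCD3 and the combination, these would be paired too, and their values were mixed. Whether the number pairs any groups is therefore not settled, and the replicate block spans all 12 libraries. No libraries were duplicates, but replicates 2 and 3 were much alike in the combination and in LA. Their chi-square per degree of freedom was 4.67 and 9.81, against 48.9 to 211 for the other pairs within a group. Alternatives were DESeq2 1.42.0, limma 3.58.1 on quantile-normalized log2(FPKM + 1) and log2(FPKM + 0.1), other filters, no TMM factors, only the groups compared, no fold threshold, the replicate block, replicates 2 and 3 only, and each library left out.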

Additional observations from a re-analysis of the deposited data

Results flagged for a closer look

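None of the 8 member genes was flagged. In 11 other genes of the pathway lists the response to L. acidophilus depended on FK506 by the edgeR interaction test. For Il9 (edgeR adjusted p = 0.00447), Il24 (edgeR adjusted p = 0.00447) and Il17d (edgeR adjusted p = 0.00766) the table lists 0 counts in the 3 combination libraries and values above 0 in every other library, so these calls rest on the listed 0 values, and whether those are measured is not given in the sources used here. The interaction was negative for Il21 at -3.21 (SE 0.57, edgeR adjusted p = 0.013), Gata3 at -1.10 (SE 0.18, edgeR adjusted p = 0.00933), Gfi1 at -1.19 (SE 0.22, edgeR adjusted p = 0.0142) and Ikzf3 at -1.27 (SE 0.30, edgeR adjusted p = 0.0382). It was positive for Il18 at 2.57 (SE 0.48, edgeR adjusted p = 0.0157), Nr1d1 at 1.51 (SE 0.27, edgeR adjusted p = 0.014), Bhlhe40 at 1.19 (SE 0.23, edgeR adjusted p = 0.0186) and Traf3ip2 at 0.63 (SE 0.16, edgeR adjusted p = 0.0443). The call was lost for Il18 without LA replicate 2 (edgeR adjusted p = 0.0505), for Bhlhe40 without FK replicate 3 or combination replicate 2 (up to an edgeR adjusted p of 0.0543), for Ikzf3 without any of 8 libraries (up to an edgeR adjusted p of 0.0928, without FK replicate 3) and for Traf3ip2 without any of 10 (up to an edgeR adjusted p of 0.115, without FK replicate 3).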

How the results depend on the processing

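No member fold change that was called turned its sign under any alternative, and of the 48 member values 48 kept their sign with DESeq2, no TMM factors or other filters, 45 with limma or the replicate block, 44 with replicates 2 and 3 only and 42 to 48 with a library left out. Of the 8 members, 4 were called in FK against aCD3, but 2 with limma on log2(FPKM + 1), 6 with DESeq2 and 7 with the replicate block, of which Il22 was lower, and 3 to 6 with a library left out; Il22 was also called lower with only the groups compared, with replicates 2 and 3 only and without combination replicate 1. In the combination against FK, 3 were called, but 5 with limma on log2(FPKM + 1), 6 with the block, 5 with replicates 2 and 3 only and 5 with these in a block, a fit added after seeing the data; a library left out gave 3 to 4. A library left out gave 5 to 7 in the combination against aCD3, where Il17a and Ccl20 were lost without aCD3 replicate 2 or combination replicate 1 and Il17a without aCD3 replicate 3, while Ccl20 was also lost with limma on log2(FPKM + 1) and Il22 was added as a lower call without combination replicate 1; with replicates 2 and 3 only 8 were called, Il22 lower. A library left out gave 4 to 7 against LA, with 4 without LA replicate 2 or 3 or combination replicate 1. Of the pathway lists, the count for LA against aCD3 was 0, but 1 with filterByExpr, 1 with no filter, 3 with DESeq2 and 0 to 1 with a library left out. For FK against aCD3 it was 32, but 16 with limma on log2(FPKM + 1); for the combination against FK 27, and 16 to 29 with a library left out; for the interaction 11, but 20 with DESeq2, 19 with limma on log2(FPKM + 1), 17 with the block and 5 with the block in replicates 2 and 3. The cause of these differences was not tested. The counts of calls in this paragraph come without the share of all genes called under the same setting. A higher count is therefore not read as a stronger result for the members. Without TMM factors the median over all genes moved by up to 0.205. In LA against aCD3 the block changed no member call, and in the combination against LA it added only Ccl20. For the interaction 0 members were called, but Il1r1 with DESeq2, both limma fits, the block, replicates 2 and 3 only, and without LA replicate 1 or FK replicate 1. Depth limits Ccl20, Il17f, Il17a, Il23r and Ccr6 in aCD3, at 4 to 89 counts.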
